A study of Mus musculus with 12 samples.

Results

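Only 6 protein-coding genes, Svop, Ddx59, Coq5, Grin2d, Fbxl4 and Odc1, had a higher level in each of the 9 photoreceptor Otx2 cKO retinas than in any of the 3 P30 control retinas. They were the genes that met this rule among 13343 eligible genes, out of 54146 genes counted in whole retinas. A gene was eligible when it was protein-coding, not on chromosome Y and had a mean level of at least 1 CPM, where CPM is the count of a gene per 1000000 counts on genes of its library. The genes were thus chosen by their measured levels in all 12 retinas, so the difference between cKO and control is a description with no test.

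RNA was sequenced from 1 library per mouse, with 3 mice at each age. The controls were P30 mice labelled control (mice 1 to 3), which stand for the time of injection. The cKO mice, labelled Otx2 KO with ablation in photoreceptors, carried Crx-CreERT2 and Otx2 flox/flox and were killed at P32 (mice 4 to 6), P34 (mice 7 to 9) and P38 (mice 10 to 12), which is 2, 4 and 8 d after tamoxifen. The Crx promoter drives the tamoxifen-dependent Cre in photoreceptors, so the other cells of the retina are not targeted, and recombination removes 1 coding exon. Controls were younger than every cKO mouse, so age, time after tamoxifen and deletion cannot be told apart in this comparison.

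The libraries held 29701483 to 60145034 counts on genes, and the 2 deepest were P30 mice 1 and 2. Otx2 itself, counted over all its exons, had 301 to 344 CPM in P30 and 307 to 387 CPM in cKO retinas, which does not check the deletion of a single exon. Rod markers took 75370 to 117298 CPM in cKO and 82469 to 86499 CPM in P30 retinas, so the labelled tissue was present in every library. P32 mouse 4 lay farthest from its group in the principal component analysis (distance 58.3). P32 mouse 6 was nearly as far (53.9), and P32 mouse 5 came next (26.6). Xist, read here as a mark of sex, exceeded 100 CPM in all 3 controls but in only 4 of 9 cKO mice. The groups were thus unequal in sex as read from Xist, and its part in the comparison was not tested. In a whole retina, fewer cells of a type and less RNA per cell cannot be told apart.

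The 6 genes belong to several biochemical systems. Synaptic vesicle proteins of the SV2 family resemble membrane transporters, and NMDA receptors are glutamate-gated cation channels assembled from an obligatory subunit and modulatory subunits. Mitochondria make coenzyme Q, the mobile electron carrier of the respiratory chain, and are removed by mitophagy. Polyamines are small cations made from ornithine, and DEAD-box proteins are RNA helicases.

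Promoter sequences are shown for the members whose annotated starts allow it, because the letters just before a gene are one feature the selection did not use. RefSeq (GRCm38.p6) gave a promoter for 4 of the 6 genes, and Svop and Coq5 were not matched. The 120 bases printed end before the first base of the gene in both annotations, which left out Grin2d. Capitals mark GGGCGG or its complement CCGCCC, the letters of a GC box, and the sequences run 5′ to 3′ on the strand of the gene, which is the plus strand in each case (Ddx59 at chr1:136415151-136415270, Fbxl4 at chr4:22357423-22357542 and Odc1 at chr12:17544674-17544793).
Ddx59: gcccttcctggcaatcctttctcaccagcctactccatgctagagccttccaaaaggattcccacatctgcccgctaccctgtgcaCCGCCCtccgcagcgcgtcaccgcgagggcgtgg
Fbxl4: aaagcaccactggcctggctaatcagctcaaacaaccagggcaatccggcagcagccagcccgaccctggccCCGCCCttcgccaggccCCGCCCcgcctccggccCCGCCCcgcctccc
Odc1: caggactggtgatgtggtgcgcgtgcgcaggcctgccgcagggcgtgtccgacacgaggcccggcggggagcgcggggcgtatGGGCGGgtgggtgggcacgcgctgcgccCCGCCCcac

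Over the 250 bases before the RefSeq start, searched on both strands, GGGCGG was found in 3 of the 4 promoters and in 56.9% of 13529 promoters of eligible genes (32.7% of all 32851 promoters). TAATCC, the core letters that OTX2 and CRX bind, was in 0 of the 4, against 5.17% of the promoters of eligible genes and 6.25% of all. Neither CACGTG, the E-box of clock factors (7.95% of the promoters of eligible genes), nor TATAAA (6.56%) was in any of the 4. The absence of these letters from so short a window says nothing about binding elsewhere.

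The members formed 0.0450% of eligible genes. If all orderings of 12 retinas were equally likely, 9 given retinas would lie above the other 3 in 1 of 220 orderings, or 60.65 of the eligible genes. The reverse pattern, each cKO retina below every control, held for 72 genes (0.540%), and both numbers moved with the scaling of the libraries and with single retinas. Counted by the number of cKO retinas above every control, the genes fell from 3406 with 1 such retina to 1246 with 4, 654 with 6, 294 with 7, 44 with 8 and 6 with all 9. The same counts below every control were 1622 with 4, 708 with 6, 413 with 7, 170 with 8 and 72 with 9. At a single age, all 3 cKO retinas were above all 3 controls for 738 genes (5.53%) at P32, 1276 (9.56%) at P34 and 534 (4.00%) at P38. These 3 comparisons share their controls.

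**Figure D1:**
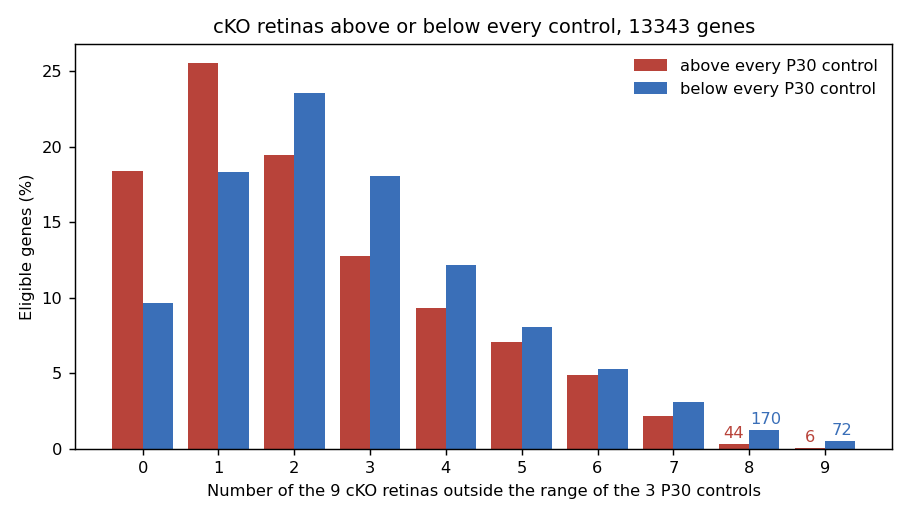
Percent of the 13343 eligible genes (vertical axis) by how many of the 9 cKO retinas lay above (red) or below (blue) every P30 control retina (horizontal axis), with the number of genes written over the last bars. Both series shrink toward 9 retinas, where 6 genes lay above and 72 below.

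One library decided many near misses. Of the 44 genes with 8 of 9 cKO retinas above the controls, 19 failed in P32 mouse 4 and 8 in P38 mouse 10, whereas none failed in P34 mouse 9. P32 mouse 4 also had the strongest relation of level to transcript length, with long-transcript genes 0.89 lower than short-transcript genes on the log2 scale relative to the mean of the libraries (medians of the genes with the longest and the shortest transcripts). It had as well the highest lens sum of the 12 libraries (55069 CPM), the largest share of reads without a unique position (32.2%), the smallest mitochondrial share of counts (1.64%) and the strongest relation of level to GC content (0.34 on the same scale). Without this library 25 genes met the rule.

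Svop encodes a synaptic vesicle protein related to SV2 (ENSMUSG00000042078, chr5:114026910-114091570 of GRCm38, minus strand). Svop had 93.6, 96.5 and 94.5 CPM in the P30 retinas. At P32 the cKO levels were 104, 109 and 103 CPM. At P34 they were 117, 104 and 103 CPM, and the P38 retinas had 103, 105 and 109 CPM. P32 and P38 retinas covered nearly the same range, and P34 retinas a wider one because P34 mouse 7 had the highest level. The mean was 94.9 ± 1.50 CPM (SD, n = 3) in controls and 106 ± 4.60 CPM (SD, n = 9) in cKO retinas, 1.12 times the control mean. The lowest cKO retina was 1.07 times the highest control, with a 95% exact counting interval of 1.02 to 1.11. The rule picked these extreme values, so this interval and those of the other members show the counting precision behind the gap and test nothing. The log2 gap of Svop fell from 0.09 to 0.0029 with TMM scaling and to 0.02 with DESeq2 size factors. With 3062 to 5630 counts it was the most deeply counted.

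Grin2d encodes GluN2D, a modulatory NMDA receptor subunit that gives channels with slow closing (ENSMUSG00000002771, chr7:45831883-45878378, minus strand). Its levels were 8.70, 8.19 and 8.17 CPM in P30 retinas and 9.07, 9.26 and 9.14 CPM at P32. At P34 they were 10.3, 8.86 and 12.0 CPM, and at P38 10.4, 10.7 and 9.68 CPM. The P32 retinas were nearly equal to each other, P34 retinas ranged most widely, and each P38 retina was above each P32 retina. The cKO mean of 9.94 ± 1.01 CPM (SD, n = 9) was 1.19 times the control mean of 8.35 ± 0.297 CPM (SD, n = 3). The lowest cKO value, in P34 mouse 8, was 1.02 times the highest control (0.889 to 1.17).

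Coq5 encodes a methyltransferase of coenzyme Q synthesis (ENSMUSG00000041733, chr5:115279666-115296972, plus strand). Coq5 had 37.26, 34.24 and 33.23 CPM in controls, and 45.76, 38.05 and 38.95 CPM at P32. The P34 retinas had 48.32, 43.60 and 41.68 CPM, and the P38 retinas 41.75, 38.02 and 38.67 CPM. The highest values came from P34 mouse 7 and P32 mouse 4, and 4 of the 9 cKO retinas lay within 2 CPM of P30 mouse 1. On average the cKO retinas had 41.6 ± 3.67 CPM (SD, n = 9) against 34.9 ± 2.10 CPM (SD, n = 3), 1.19 times as much. The gap between the groups was 1.02-fold (0.957 to 1.09).

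Fbxl4 encodes a mitochondrial F-box protein that restrains mitophagy (ENSMUSG00000040410, chr4:22357543-22434091, plus strand). It had 20.3, 20.7 and 19.9 CPM in P30 retinas, a narrow range. Values at P32 were 25.2, 23.2 and 24.8 CPM, at P34 26.7, 24.1 and 22.4 CPM and at P38 23.3, 21.1 and 22.3 CPM. P38 mouse 11 came closest to the controls, at 1.02 times the highest of them (0.927 to 1.11). The cKO mean was 23.7 ± 1.72 CPM (SD, n = 9) and the control mean 20.3 ± 0.410 CPM (SD, n = 3), a ratio of 1.16.

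Odc1 encodes ornithine decarboxylase, the rate-limiting enzyme of polyamine synthesis (ENSMUSG00000011179, chr12:17544794-17551505, plus strand). Odc1 had 21.5, 21.4 and 18.6 CPM in P30 retinas. The P32 retinas had 23.6, 29.0 and 26.2 CPM, those of P34 had 24.4, 23.0 and 21.8 CPM, and those of P38 had 38.2, 31.2 and 29.9 CPM. The 3 highest retinas were those of P38, while P34 retinas lay just above the controls. The mean of 27.5 ± 5.19 CPM (SD, n = 9) in cKO retinas was 1.34 times that of controls (20.5 ± 1.70 CPM, SD, n = 3), the largest ratio of the 6. With CPM of library totals its gap was the smallest of the 6, at 1.01-fold (0.918 to 1.11), and its lowest cKO retina was P34 mouse 9. With TMM scaling and DESeq2 size factors the gap was instead the largest of the 6, at 0.10 on the log2 scale under both, from 0.02.

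Ddx59 encodes a DEAD-box RNA helicase (ENSMUSG00000026404, chr1:136415271-136440158, plus strand). Ddx59 had 7.73, 7.89 and 8.03 CPM in controls. In cKO retinas it had 9.91, 9.26 and 8.45 CPM (P32), then 8.98, 9.43 and 8.82 CPM (P34), and 8.95, 8.40 and 8.68 CPM (P38). P32 mouse 4 was highest, and P38 mouse 11 was lowest at 1.05 times the highest control (0.893 to 1.23). The mean was 8.99 ± 0.485 CPM (SD, n = 9) in cKO retinas, 1.14 times the 7.88 ± 0.150 CPM of controls (SD, n = 3). With 260 to 465 counts per library it was the least counted member.

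**Figure D2:**
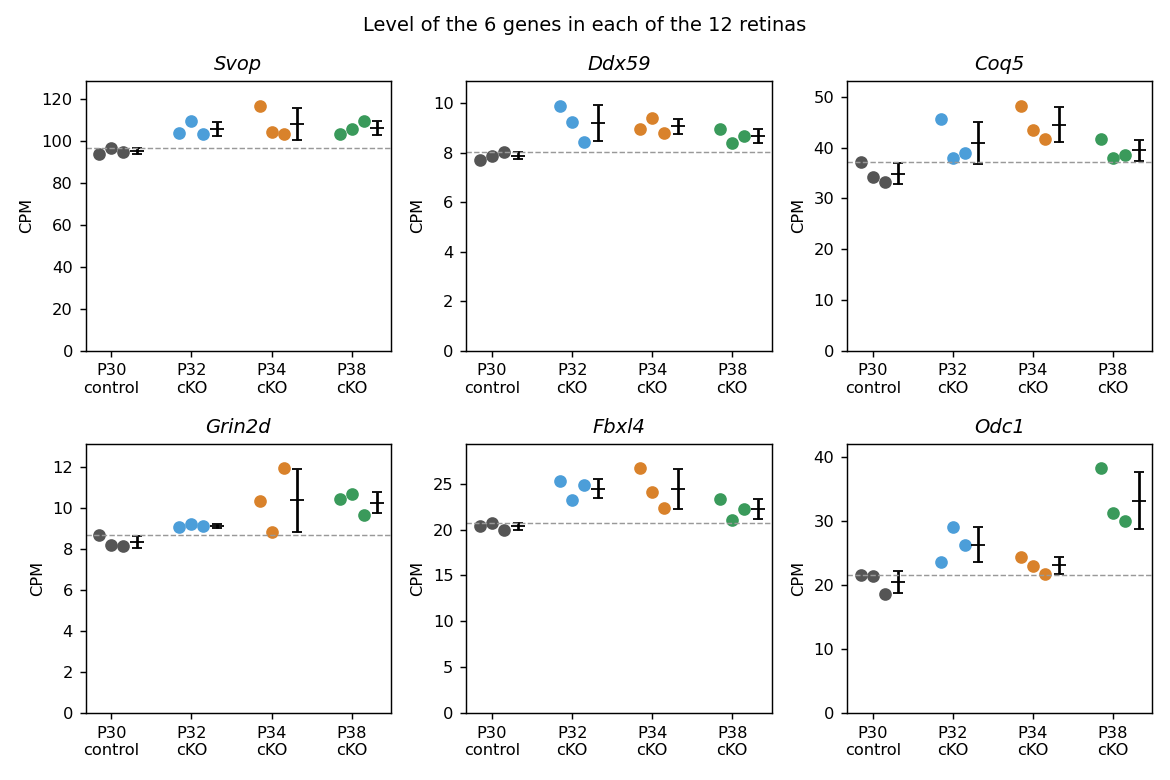
CPM of each of the 6 genes (vertical axes, from 0) in the 12 retinas (points), by condition (horizontal axes). Black bars are the mean and SD of 3 retinas and the dashed line is the highest P30 control. All 9 cKO points lie above the line in each panel, by 1.01 to 1.07 times at the closest, and the P38 retinas stand highest for Odc1.

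Just outside the rule, Chac1, a glutathione-degrading enzyme of the stress response, had its lowest cKO retina at 0.994 times the highest control. The glycerol kinase Gk5 was at 0.989, the phosphatidylinositol transfer protein Pitpnb at 0.985 and the neuronal calcium sensor Vsnl1 at 0.984. For members and near misses alike, the counting intervals cover counting error only and not the spread between mice.

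**Figure D3:**
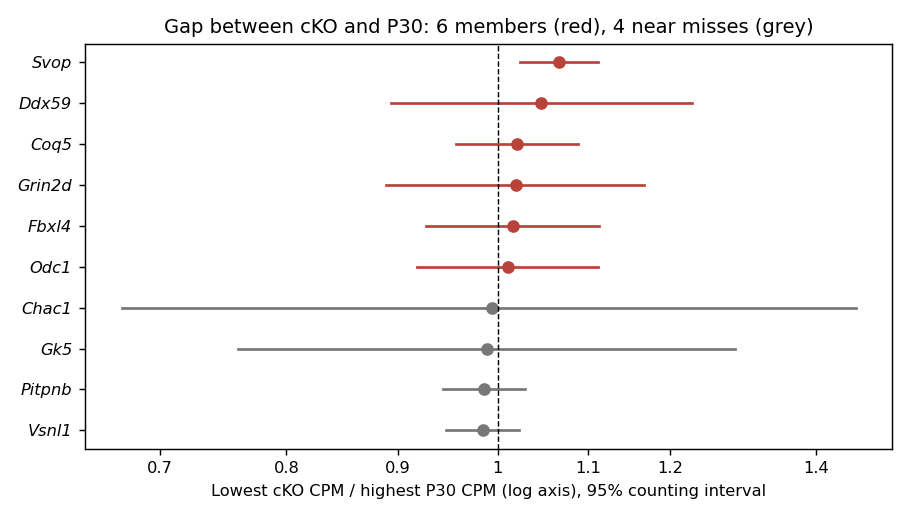
Lowest cKO CPM divided by highest P30 CPM (horizontal log axis; points) with its 95% exact counting interval (lines) for the 6 members (red) and 4 genes that narrowly missed the rule (grey). Points run from 1.07 for Svop to 0.984 for Vsnl1, an order that holds for CPM of library totals, and the lines show counting precision and no test of the gap.

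The members were not the genes with the largest differences. The ratio of cKO to control mean was above 1 for 5850 eligible genes, and 728 had a ratio at least that of Svop, the smallest of the 6. A ratio at least that of Odc1 was found for 60 genes, Odc1 included. The members varied little within a condition: their median coefficient of variation was 2.79% at P30, 6.15% at P32, 7.35% at P34 and 5.08% at P38, where the medians over eligible genes were 10.2%, 16.0%, 9.85% and 10.7%. A small spread, in the controls above all, is part of what the rule selects.

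Ages among the cKO retinas were compared by edgeR's quasi-likelihood test, since the rule did not use their order. The rule did bound every cKO value from below and favoured a small spread. The tests are therefore not independent of the selection, and the absence of a call is not read as a result. A call required an adjusted p (Benjamini-Hochberg) no higher than 0.05 together with a log2 change of 0.5 or more in either direction. None of the 6 was called between P34 and P32 (45 of 18628 tested genes, 0.242%), between P38 and P34 (37 genes, 0.199%) or between P38 and P32 (0 genes, 0%). These counts over all genes rested on single libraries: without P32 mouse 6 they were 2726 (P34 and P32) and 1946 (P38 and P32), and without any 1 other library 14 to 47 and 0 to 3. Between P38 and P34 they were 8 to 58 when each library was left out, and 0 members were called in any of these fits. With the unadjusted edgeR p in place of the adjusted one, 0 members were called between P34 and P32 (14.4% of genes), 1 between P38 and P34 (3.81%) and 0 between P38 and P32 (11.9%), while DESeq2 called 0 (8.10% of genes with an adjusted p), 1 (0.694%) and 0 (5.26%) members. Both calls were Odc1. For Odc1 the log2 fold change from P34 to P38 was 0.56 (SE 0.14), with an edgeR unadjusted p of 0.00145 and an adjusted p of 0.283, and DESeq2 gave it an adjusted p of 0.0345. All 3 P38 retinas were above all 3 P34 retinas for Odc1, as they were for 3.99% of eligible genes. From P32 to P38 the log2 fold change of Odc1 was 0.46 (SE 0.14, edgeR adjusted p = 0.118). DESeq2 gave an adjusted p of 0.0399 with a log2 fold change of 0.46, under the limit of 0.5, and all 3 P38 retinas lay above all 3 P32 retinas, as for 6.05% of eligible genes.

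For the other 5 genes the log2 fold changes between cKO ages were small. Grin2d had 0.27 (SE 0.13, edgeR adjusted p = 0.220) from P32 to P34, 0.02 (SE 0.13) from P34 to P38 and 0.29 (SE 0.13, edgeR adjusted p = 0.221) from P32 to P38. Its P38 retinas were all above its P32 retinas, the order that 6.05% of eligible genes had. Coq5 had 0.21 (SE 0.11, edgeR adjusted p = 0.257) from P32 to P34 and -0.14 (SE 0.11) from P34 to P38. Svop, Ddx59 and Fbxl4 had log2 fold changes between -0.10 and 0.12 in the 3 comparisons, with standard errors of 0.09 to 0.12. Apart from the 3 orders named for Odc1 and Grin2d, the retinas of any 2 cKO ages overlapped for each member.

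From retina to retina the members took different courses. Over the 9 cKO retinas, which share libraries, 6 of 15 pairs of members had a positive Pearson correlation of CPM, with a median of -0.01. The correlations ran from -0.45 for Ddx59 and Grin2d to 0.78 for Coq5 and Fbxl4, both of which were highest in P34 mouse 7.

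Each member was set beside the other genes of its own system, where a high ratio of the member is part of what the rule selects. Of the 7 NMDA receptor subunit genes, 6 were eligible, and their median log2 ratio of cKO to control mean was 0.21, beside -0.02 over all eligible genes. Per kilobase of exon, the obligatory subunit Grin1 had the highest level (10.0 CPM per kb), and Grin2a (1.40), Grin2b (1.54) and Grin2d (1.43) were close to each other. Grin1 and Grin3a had 7 of 9 cKO retinas above every control and Grin2a and Grin2b had 6, but Grin1, Grin3a and Grin2b also had 2 to 3 retinas below every control. Grin2d had none below. Grin2c, at 4.54 ± 0.814 CPM in controls and 4.48 ± 1.01 CPM in cKO retinas (SD, n = 3 and 9), had 0 of 9 above.

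Among SV2-related genes, Sv2a and Sv2b, which like Svop are proteins of the vesicle membrane, each had 6 of 9 cKO retinas above every control and 2 below. Sv2c had 4 above and 2 below. Their levels were higher than that of Svop per kilobase of exon for Sv2a (120 CPM per kb) and Sv2b (78.1), against 22.7 for Svop and 5.86 for Sv2c. The log2 ratio of means was 0.17 for Svop, 0.09 for Sv2a, 0.14 for Sv2b and 0.22 for Sv2c.

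The coenzyme Q genes had log2 ratios on both sides of 0. Of 13 eligible genes of this pathway, 2 had at least 7 cKO retinas above every control, Coq5 and the kinase-like Coq8a (7 above, 2 below), and the median log2 ratio was -0.05. Coq2, the prenyltransferase that joins ring and tail, had 2 of 9 retinas above and 6 below every control, at 44.7 ± 8.38 CPM (SD, n = 9) against 51.3 ± 4.67 CPM (SD, n = 3). Coq9, which assists the hydroxylase Coq7, had 1 retina above and 3 below.

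In polyamine metabolism, 11 of 13 genes were eligible and the median log2 ratio was 0.02. Next to Odc1 (0.42 on the log2 scale), the largest ratio was that of the polyamine oxidase Paox, with 0.09 and 7 of 9 retinas above the controls. The antizyme Oaz1, which directs ornithine decarboxylase to degradation, had 2 retinas above and 6 below, at 60.8 ± 12.3 CPM (SD, n = 9) against 65.2 ± 3.65 CPM (SD, n = 3). Spermidine synthase (Srm) had 3 above and 4 below, and spermine synthase (Sms) 1 and 1.

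**Figure D4:**
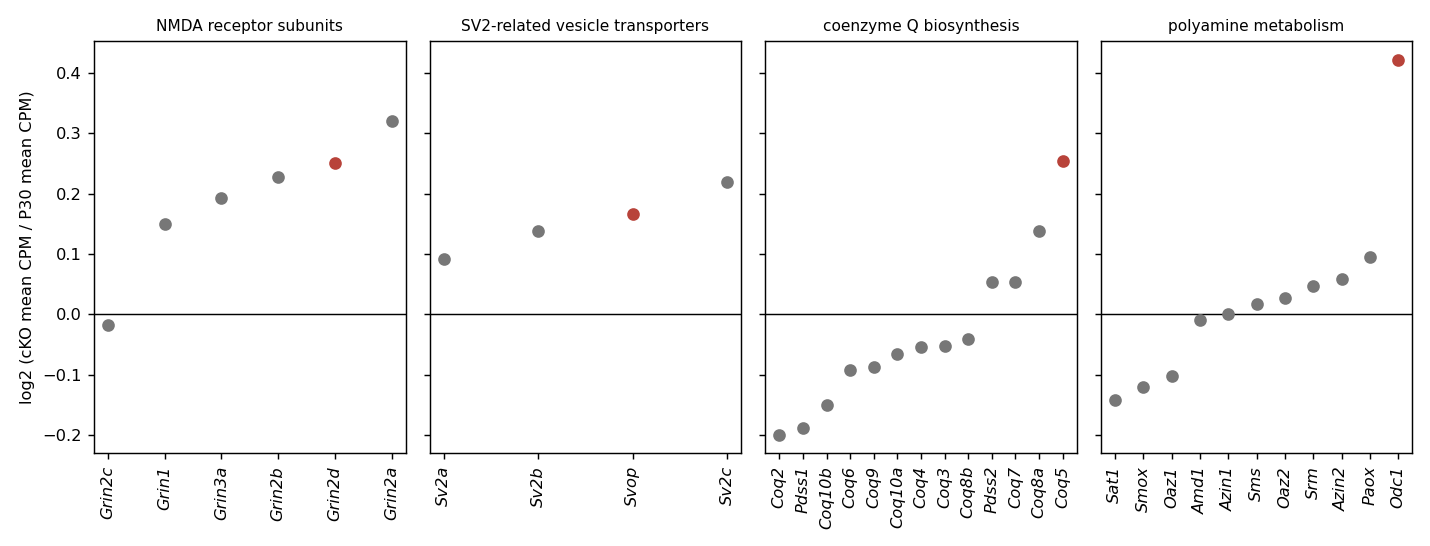
Log2 ratio of the cKO mean CPM (n = 9) to the P30 mean CPM (n = 3) (vertical axis, shared) for the eligible genes of 4 systems (panels), with the member in red. Grin2d and Svop lie among others of similar ratio, whereas Coq5 (0.25) and Odc1 (0.42) lie above the rest of their pathways. The rule chose the members by these levels, so a high place of a member is a description and no test.

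Fbxl4 was set beside mitophagy genes and other F-box genes. The mitophagy receptors Bnip3 and Bnip3l, whose proteins FBXL4 keeps low, had 4 and 1 of 9 cKO retinas above every control, and over 11 mitophagy genes the median log2 ratio was 0.04. Of 14 eligible Fbxl genes, Fbxl4 and Fbxl21 (7 above, 2 below) had at least 7 retinas above. Ddx59 was 1 of 35 eligible DEAD-box genes, whose median log2 ratio was -0.01, and Ddx25, a helicase, was the only other one with at least 7 retinas above (7 above, 2 below).

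In wider lists of genes, 2 of 34 lists or families held a member. These were the glutamate, GABA and glycine receptors, with Grin2d (1 of 48 eligible genes), and the Trim, Rnf, Fbx and Herc ubiquitin ligases, with Fbxl4 (1 of 178). None of the 14 lists of cell type markers held one. At least 7 cKO retinas above every control were found for 344 eligible genes (2.58%). The share was above this in 14 of the 34 lists, lower but above 0 in 2 and 0 in 18. It was highest for presynaptic release and the active zone (7 of 38 genes, 18.4%) and ganglion cell markers (2 of 12, 16.7%), then photoreceptor transcription factors (2 of 17, 11.8%) and the receptors (5 of 48, 10.4%). Zinc finger genes of the Zfp and Zkscan families (5 of 406, 1.23%) and solute carriers (4 of 263, 1.52%) had the lowest shares above 0, and nuclear subunits of oxidative phosphorylation had 0 of 81.

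For several cell types the marker sums of most cKO retinas lay above or below every control, which was not tested. The summed level of 13 pigment epithelium markers was 294, 973 and 900 CPM in P30 mice 1, 2 and 3 and 159 to 354 CPM in cKO retinas, with 7 of 9 cKO sums below every control and P30 mouse 1 within the cKO range. For 7 smooth muscle markers it was 31.4, 191 and 190 CPM in these controls and 9.70 to 51.1 CPM in cKO retinas, and for 10 markers of ciliary body and iris 258 to 273 and 159 to 260 CPM. Lens markers (11 genes) summed to 663 to 42266 CPM in P30 and 321 to 55069 CPM in cKO retinas. Within the retina, the sum of 10 Mueller glia markers was 5608 to 6375 CPM in P30 and 4933 to 6726 CPM in cKO retinas, below every control in 7 of 9, and that of the rod markers was above every control in 6 of 9 and below in 3. The sum of 12 ganglion cell markers was 1167 to 1486 CPM in P30 and 1271 to 2008 CPM in cKO retinas, above every control in 7 of 9. Each list had all its genes above 0.1 CPM in at least 1 library. The part of these cells and tissues in the levels of the 6 members was not tested. Between cKO retinas with and without Xist above 100 CPM (4 and 5 mice), the ranges of all 6 members overlapped. The overlap was not counted over all eligible genes, so it says nothing particular about the members.

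In structure the 6 genes varied. They had 7 to 16 exons in the longest transcript (median 10.5, against 8 over eligible genes), with a median transcript of 2793.5 bases (3544) and a median GC content of 52.1% (49.8%). These medians lay within the interquartile range of the eligible genes, but Coq5, Ddx59 and Odc1 had transcripts shorter than that range (2037, 2166 and 2208 bases) and Grin2d a longer one (5431 bases). GC content was above the range for Grin2d (65.0%) and Svop (57.9%) and below it for Fbxl4 (44.5%). Mean levels over the 12 libraries ran from 8.71 CPM for Ddx59 to 104 CPM for Svop, or from 1.43 CPM per kb for Grin2d to 22.7 for Svop. Some share a stretch of chromosome with another gene. Svop overlaps Usp30 on the other strand (39.8 CPM, with 1 of 9 cKO retinas above every control). Grin2d overlaps Kdelr1 (58.0 CPM, 2 of 9) and an antisense RNA, Gm45441 (4.40 ± 0.590 CPM in P30 and 5.70 ± 1.51 CPM in cKO retinas, SD, n = 3 and 9), which had 6 of 9 above. Ddx59 overlaps 9230116N13Rik (1.77 CPM, 4 of 9). The strand setting of the counting is not given in the sources used here, so reads of Grin2d and Gm45441 may not be fully separated.

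Which genes met the rule depended on how the libraries were scaled. With TMM scaling, which sets library sizes by the bulk of genes, 19 genes lay above every control in all cKO retinas, with DESeq2 size factors 25 and with upper-quartile scaling 14. The reverse pattern held for 55, 53 and 56 genes. Of the 6, Svop, Coq5, Grin2d, Fbxl4 and Odc1 met the rule under all 3, whereas Ddx59 met it under none. The scaling moved the median log2 ratio of cKO to control over eligible genes from -0.02 to 0.02, 0.03 and 0.02. TMM library sizes were 0.955 to 1.05 times the totals in controls and 0.900 to 1.04 times in cKO retinas, a wider range than the gap of 1.01 to 1.07 that separated the groups. The genes that joined under all 3 scalings included Chac1, Cend1, the potassium channel Kcnc4, Cog7, Tcerg1l and Tmem143, which were picked out after their values were seen.

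The number cannot fall when a retina is left out, since fewer retinas then have to satisfy the rule. Without P30 mouse 1 it was 69, without P30 mouse 3 25 and without P30 mouse 2 16, beside 244, 468 and 93 genes with the reverse pattern. With 2 controls the share of equally likely orderings becomes 1 of 55, or 242.6 genes. Against 25 without P32 mouse 4, it was 6 to 14 without any other cKO retina. Asking for a gap of at least 1.1-fold left 0 of the 6.

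**Figure D5:**
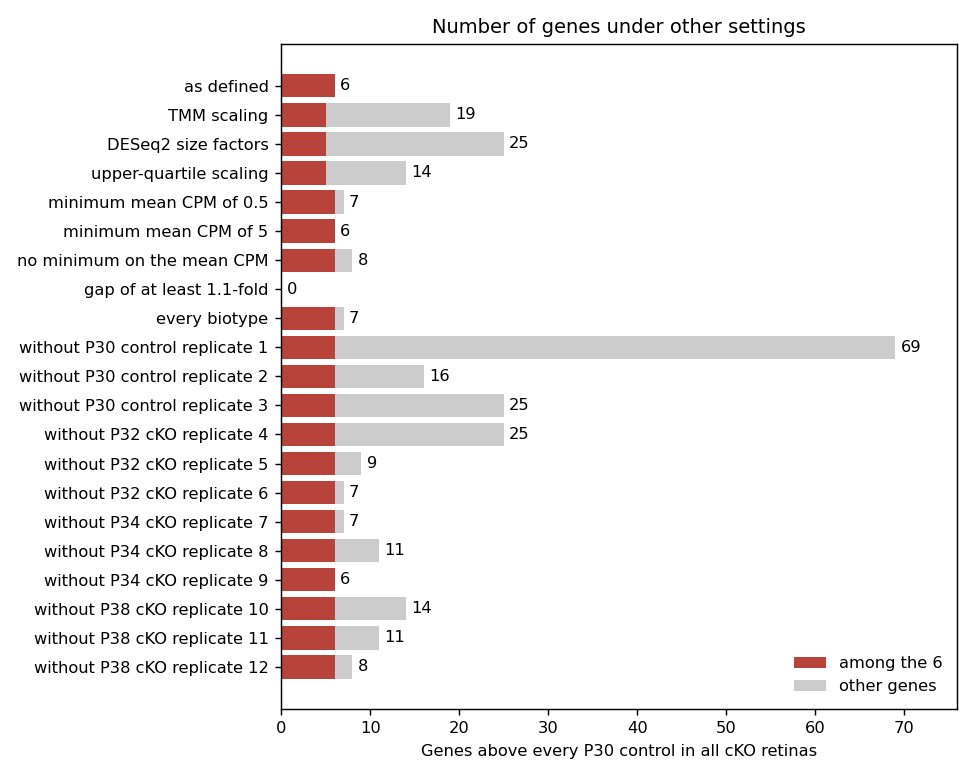
Number of genes above every P30 control in all cKO retinas (horizontal axis) when the libraries are scaled, filtered or left out as named on the vertical axis. Red counts genes among the 6 and grey other genes, and the number rises from 6 to between 14 and 25 with other scalings and to 69 without P30 mouse 1.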

How the data were processed

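Whole-retina RNA of 12 mice was made into 1 strand-specific library per mouse and read as single reads of 50 bases by the authors. Per the submitters' processing notes they used bcl2fastq 2.17.1.14, STAR 2.5.3a and HTSeq 0.6.1p1 with the mm10 build, and they deposited whole-number counts per gene without normalization. The labels of the P30 libraries give no more of their genotype than control.

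Gene names, types and positions came from GENCODE M21 (GRCm38), which named 54079 of 54146 genes. CPM is the count over the sum on genes of that library. Counting intervals are exact (Clopper-Pearson, 95%), and 3 counts corresponded to 0.0499 to 0.101 CPM. Ages were compared with edgeR 4.0.16 in R 4.3.3 (TMM, filter on low counts, 18628 genes, all 12 libraries in 1 quasi-likelihood fit), with Benjamini-Hochberg adjustment over these genes, and with DESeq2 1.42.0 as an alternative. On counts simulated for P34 against P32, 68 of 100 genes changed 2-fold and 99 of 100 changed 4-fold were recovered, with 8 false calls among 18417 genes. The members changed less between cKO ages, by a log2 of at most 0.56, and changes of that size were not simulated. The simulated counts held no outlying library.

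The members, gene lists and tests were chosen with earlier results of these data known, and the families of the 6 genes were listed once the 6 were known. Named genes are all members, 4 of the 5 nearest misses (the other is not reported here), Otx2 and Xist, relatives of the members, genes that overlap them, and genes that joined under other settings. Alternatives were other scalings, filters, thresholds and tests, and leaving out each library. Replicates are separate mice. The exons of Otx2 were not analysed one by one here.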

Additional observations from a re-analysis of the deposited data

Results flagged for a closer look

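Svop in P34 mouse 7, at 117 CPM, stood apart from the other 8 cKO retinas, and the distance to the next retina took 0.527 of the whole range of the 9. Among the 6 genes this share was largest for Svop, followed by Odc1 at 0.426. The rule used these 9 values and bounds them from below, so the share is a description and no test. A long noncoding RNA, 5930430L01Rik (chr5:148990056-148995223 of GRCm38, minus strand), was the only gene of another type with a mean of at least 1 CPM that lay above every control in all cKO retinas. It had 24.6 to 29.6 CPM in P30 and 29.8 to 49.7 CPM in cKO retinas (27.4 ± 2.59 CPM, SD, n = 3, against 38.7 ± 7.63 CPM, SD, n = 9), and its lowest cKO retina was 1.01 times its highest control.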

How the results depend on the processing

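The number of genes that met the rule was 6 as defined, 19 with TMM scaling, 25 with DESeq2 size factors, 14 with upper-quartile scaling and 0 with a gap of at least 1.1-fold. It was 6 to 69 when each library was left out, and 25 without P32 mouse 4, the library farthest from its group. Between cKO ages 0 members were called except Odc1: 1 member was called between P38 and P34 with DESeq2 (log2 fold change 0.56, adjusted p = 0.0345) and with the unadjusted p. Against P30 the selection used the same values, so a call is no test: 0 members passed the threshold, and 1 (Odc1) at P38 with no filter on low counts (18 of all genes), with DESeq2 (47) and with the unadjusted p (645), where edgeR called 0 of all genes. Over all genes, edgeR called 45 between P34 and P32, 37 between P38 and P34, 0 between P38 and P32 and 123 between P34 and P30, whereas DESeq2 called 1406, 147, 913 and 358. Over its alternatives Odc1 had log2 fold changes of 0.39 to 0.65 from P34 to P38, with adjusted p of 0.0345 to 0.885. Changes near 0 turned direction. Fbxl4 from P32 to P38 was 0.0090 with only those 2 ages in the fit, and the log2 gap of Ddx59 was -0.0526 with TMM and -0.0381 with DESeq2 size factors. When each library was left out, the log2 changes ran from -0.0157 to 0.141 (Fbxl4, P32 to P34), -0.0378 to 0.0922 (Svop, P34 to P38), -0.100 to 0.0215 (Ddx59, P34 to P38), -0.0960 to 0.129 (Grin2d, P34 to P38), -0.0334 to 0.0901 (Ddx59, P32 to P38), -0.0196 to 0.156 (Coq5, P32 to P38) and -0.0982 to 0.0511 (Fbxl4, P32 to P38). The causes were not tested. No paired analysis was possible because each mouse has its own number, shared by no 2 groups. The counting interval of the gap lay above 1 for 1 member, Svop. It included 1 for Ddx59, with 260 to 465 counts per library, and also for Coq5, Grin2d, Fbxl4 and Odc1.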
